A study of Mus musculus with 4 samples.

Results

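The interferon-inducible GTPases are large GTP-hydrolysing proteins of cell-autonomous immunity, and they were followed here in mouse fetal erythroid cells whose RNA-editing gene Adar is targeted. The members were chosen by symbol: Irgm1, Irgm2, Igtp, Iigp1 and Ifi47 of the immunity-related GTPase (IRG) class, Gbp2, Gbp3 and Gbp7 of the guanylate-binding protein (GBP) class, and Mx1 and Mx2 of the Mx class. Of these 10 genes, 4 were among the 10716 rows of the gene table, all of them IRG genes (Irgm1, Irgm2, Igtp and Ifi47). Iigp1 and the 5 GBP and Mx members had no row, by symbol or by Ensembl identifier, and were not analysed here, so the class comparison could not be made among the chosen genes. GBP genes are represented below only by Gbp6, which belongs to a list of relatives.

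The cells were YFP+ erythroid cells sorted by flow cytometry from C57BL/6 fetal livers at embryonic day 14.5, with YFP from the R26eYFP reporter, which lights up where Cre has acted. The 2 knockout-labelled libraries (replicates 1 and 2) are described as an Epor-ADAR knockout, with the genotype written Epor-Adar / +; Epor is the erythropoietin receptor gene, whose Cre knock-in is used to delete genes in erythroid cells. The 2 controls (replicates 3 and 8) are labelled wild type, and the same YFP+ sort is given for them. The labels leave unsaid how many Adar alleles were lost, whether the controls carry Cre, and whether each library came from a separate embryo, so the spread that the p-values are judged by is that of these libraries and may be technical. In bulk samples, fewer cells of a type and less RNA per cell cannot be told apart. Total counts ran from 28356401 to 44016809 per library.

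Levels are given as CPM, counts scaled to library size with edgeR's TMM factors. Adar, the targeted gene, stood at 67.1 and 102 CPM with the knockout label and at 50.9 and 46.9 CPM in the controls, a log2 fold change of 0.79 (SE 0.25, edgeR adjusted p = 0.377). Reads from exons left in place by a conditional deletion are part of that count, so the deletion could not be checked. In 3 of the 4 libraries Y-linked genes disagreed with the labelled sex, and replicate 2 is the library with almost no Y-linked counts (0.0778 CPM summed over 4 genes, against 203 to 382 in the others). Summed markers of neutrophils and monocytes stood at 286 CPM in knockout-labelled replicate 1 and at 35.4 to 43.1 in the other 3 libraries. All 11 erythroid markers on the list were in the table, with sums of 68323 to 103070 CPM. Among the erythroid markers, the alpha-globin gene Hba-a1 and the beta-globin gene Hbb-b1 had the highest levels.

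IRG proteins bind membranes, and interferons induce most of their genes. In the mouse they fall into a regulatory group, to which Irgm1, Irgm2 and Igtp (also called Irgm3) belong and which sits on the cell's own membranes, and an effector group such as Ifi47 (Irgd) and Tgtp2 (Irgb6), which loads onto the vacuoles of intracellular parasites and bacteria. Irgm1 is also known for its part in autophagy and in the survival of blood stem cells under interferon. GBP proteins are larger GTPases that coat pathogen membranes and promote inflammasome signalling.

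The promoters are shown first because Igtp and Irgm2 have nearly the same one, and the levels of these 2 genes are set side by side below. RefSeq promoter sequences on GRCm38.p6 (300 bases each, 250 before and 50 after the start) were found for all 4 measured members, and each occurred once, letter for letter, on chromosome 11 of NCBIM37. The 110 bases before each start are printed 5′ to 3′ on the gene's own strand. Capitals mark the core of the interferon-stimulated response element (ISRE, searched as GAAANNGAAA) and the gamma-interferon activation site (GAS, searched as TTCNNNGAA, which reads the same on both strands). Both strands were searched, and overlapping matches were kept.
Irgm1: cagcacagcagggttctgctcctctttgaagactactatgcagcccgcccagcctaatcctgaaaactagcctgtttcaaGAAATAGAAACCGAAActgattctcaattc
Igtp: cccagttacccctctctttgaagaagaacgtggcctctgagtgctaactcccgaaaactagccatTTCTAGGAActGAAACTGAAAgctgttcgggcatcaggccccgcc
Irgm2: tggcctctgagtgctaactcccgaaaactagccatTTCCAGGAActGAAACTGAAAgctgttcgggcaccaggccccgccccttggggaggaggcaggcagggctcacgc
Ifi47: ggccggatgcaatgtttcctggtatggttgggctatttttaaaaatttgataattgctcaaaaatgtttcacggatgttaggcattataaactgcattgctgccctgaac
The stretches lie at chr11:48871421-48871530 (Irgm1, minus strand), chr11:58199446-58199555 (Igtp), chr11:58214867-58214976 (Irgm2) and chr11:49076477-49076586 (Ifi47), the last 3 on the plus strand. The Igtp and Irgm2 stretches hold the same arrangement, a GAS, 2 further bases and an ISRE core, with the core 34 bases before the start in Igtp and 64 in Irgm2. The GENCODE start of Irgm2 lies 51 bases downstream of the RefSeq start.

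An ISRE core was found in 3 of the 4 promoters, those of Irgm1, Igtp and Irgm2. Among all 32851 RefSeq promoters, 3.44% hold one, as do 3.0% of those of genes in the expression table. A GAS was found in Igtp and Irgm2, against 8.3% of all promoters, and both motifs together stand in 0.454% of all promoters. Irgm1 has 2 overlapping ISRE cores, beginning 30 and 24 bases before the start, and no GAS in this window. Over 265 aligned bases the promoters of Igtp and Irgm2 were 92.1% identical, and they share an unbroken run of 61 bases, whereas the other pairs of members were 51.2% to 60.3% identical.

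No letters of either motif were in the Ifi47 window. Ifi47 has further starts in the GENCODE annotation on NCBIM37, and a search there was added after the first had been seen. The start 10452 bases downstream of the first has an ISRE core on the opposite strand, which overlaps a GAS. These 30 bases, shown because they are the only stretch of Ifi47 found to hold both, lie at chr11:48900426-48900455 (NCBIM37, plus strand). Another GENCODE start of the gene, at 48900202, lies upstream of them.
Ifi47 downstream start: gtcctTTTCTTTTTCCTGGAAatgtttatg
Reads counted for Ifi47 were not assigned to one start or the other.

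Irgm1, the regulator on the cell's own membranes, is ENSMUSG00000046879 (NCBIM37 chromosome 11, 48675470 to 48685185, minus strand). Knockout-labelled replicate 1 gave 3987 counts and replicate 2 gave 2810, against 436 in control replicate 3 and 602 in control replicate 8. Scaled by library size these were 130 and 72.8 CPM against 15.8 and 12.7 CPM. Both knockout-labelled libraries lay above both controls, with replicate 1 the higher. Mean levels were 101 ± 40.5 and 14.3 ± 2.19 CPM (SD, n = 2 each), a ratio of 7.11. The log2 fold change was 2.83 (SE 0.33), the largest of the 4 members, and it missed the threshold of 0.05 in edgeR's quasi-likelihood test (adjusted p = 0.0748).

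Igtp, a regulator found at the endoplasmic reticulum and lipid droplets, is ENSMUSG00000078853 (NCBIM37 chromosome 11, 58013058 to 58021093, plus strand). The knockout-labelled replicates 1 and 2 gave 7107 and 8559 counts, and the controls 3050 and 4593. These were 232 and 222 CPM against 111 and 97.0 CPM. The groups did not overlap, and the 2 libraries of each group lay close together. Mean levels were 227 ± 7.08 and 104 ± 9.58 CPM (SD, n = 2 each), a ratio of 2.19 and a log2 fold change of 1.13 (SE 0.19, edgeR adjusted p = 0.146). Among the members Igtp had the smallest spread within groups relative to the mean, and a much smaller difference than Irgm1.

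Ifi47, of the effector group, is ENSMUSG00000078920 (NCBIM37 chromosome 11, 48890089 to 48910476, plus strand). It had the lowest counts of the members, 310 and 125 with the knockout label and 30 and 59 without it. That is 10.1 and 3.24 CPM against 1.09 and 1.25 CPM. Both knockout-labelled libraries lay above the controls, and they differed from each other more than did those of Irgm1 or Igtp. Mean levels of 6.68 ± 4.86 and 1.17 ± 0.112 CPM (SD, n = 2 each) gave a log2 fold change of 2.50 (SE 0.60, edgeR adjusted p = 0.295). Ifi47 shares exon sequence with the olfactory receptor gene Olfr56 on the same strand, and the treatment of reads that fall in both is not stated.

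Irgm2, a regulator located at the Golgi apparatus, is ENSMUSG00000069874 (NCBIM37 chromosome 11, 58028530 to 58036282, plus strand). The knockout-labelled replicates 1 and 2 gave 2012 and 7126 counts, and the controls 5300 and 5475. These were 65.6 and 185 CPM against 192 and 116 CPM. The groups overlapped: knockout-labelled replicate 1 was the lowest of the 4 libraries, and replicate 2 lay between the controls. Mean levels of 125 ± 84.2 and 154 ± 54.1 CPM (SD, n = 2 each) gave a log2 fold change of -0.30 (SE 0.51, edgeR adjusted p = 0.766).

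**Figure D1:**
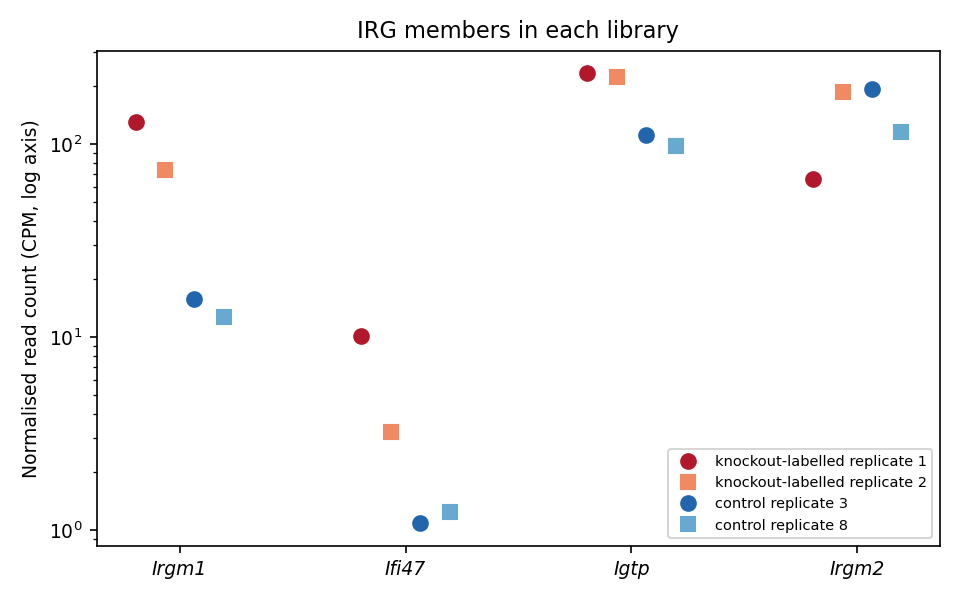
Normalised read count (CPM, log axis) of the 4 measured IRG members; each point is 1 library. For Irgm1, Ifi47 and Igtp both knockout-labelled points lie above both control points, while the libraries of Irgm2 overlap, from 65.6 to 192 CPM.

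The edgeR quasi-likelihood test, with all 4 libraries, called 0 of the 4 members at an adjusted p below 0.05, and it called 0.103% of all genes as higher and 0% as lower. At an unadjusted p below 0.05 it gave 3 members as higher (Irgm1, Igtp and Ifi47), beside 9.82% of all genes, and none as lower, beside 2.08%. DESeq2 called the same 3 as higher, as did edgeR's likelihood ratio test, beside 3.29% and 3.09% of all genes as higher (0.196% and 0.168% as lower). Limma-voom called 0 members, beside 0.0747% of all genes as higher. In the authors' deposited table the adjusted p was 0.106 for Irgm1, 0.199 for Igtp, 0.429 for Ifi47 and 0.661 for Irgm2, and 0.0747% of all genes were below 0.05 there. These 4 values equal those of the limma-voom fit to 3 digits, so they are not a separate result. Without library scaling Irgm1 was called (adjusted p = 0.00148), beside 0.793% of all genes as higher and 0.0187% as lower. With the stricter filter 0 members were called, beside 0.142% of all genes, and likewise with robust=FALSE or legacy=FALSE, beside 0.14% with each.

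Both knockout-labelled libraries were above both controls in 3 members, and in 27.4% of all genes. They were below both controls in 0 members, and in 26.7% of all genes. The median log2 fold change of the 4 members was 1.82, against -0.00077 over all genes. Each of the 4 exceeded 1 CPM in all 4 libraries, which is the level that every gene of the table passed in at least 2.

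Calls of members changed whichever library was left out, as did the calls over all genes. Without knockout-labelled replicate 1, edgeR called Irgm1 (log2 fold change 2.36, adjusted p = 0.000291) and Igtp (1.10, adjusted p = 0.0206), beside 1.29% of all genes as higher and 0.0467% as lower. Without replicate 2 it called Irgm1 (3.18, adjusted p = 1.22e-05), Igtp (1.15, adjusted p = 0.00296) and Ifi47 (3.09, adjusted p = 0.000263) as higher and Irgm2 as lower (-1.24, adjusted p = 0.0447), beside 17.3% of all genes as higher and 15.3% as lower. Without control replicate 3 Irgm1 alone was called (adjusted p = 0.00189), beside 0.373% of all genes as higher and 0.00933% as lower. Without control replicate 8 it was again Irgm1 alone (adjusted p = 0.0470), beside 0.233% as higher and 0.0187% as lower. The Irgm2 difference turned to 0.26 when knockout-labelled replicate 1 was left out, and to 0.11 when control replicate 3 was. The Ifi47 difference was 1.46 without knockout-labelled replicate 1. These fits keep 1 library in a group, which is assumed to vary like the other group.

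**Figure D2:**
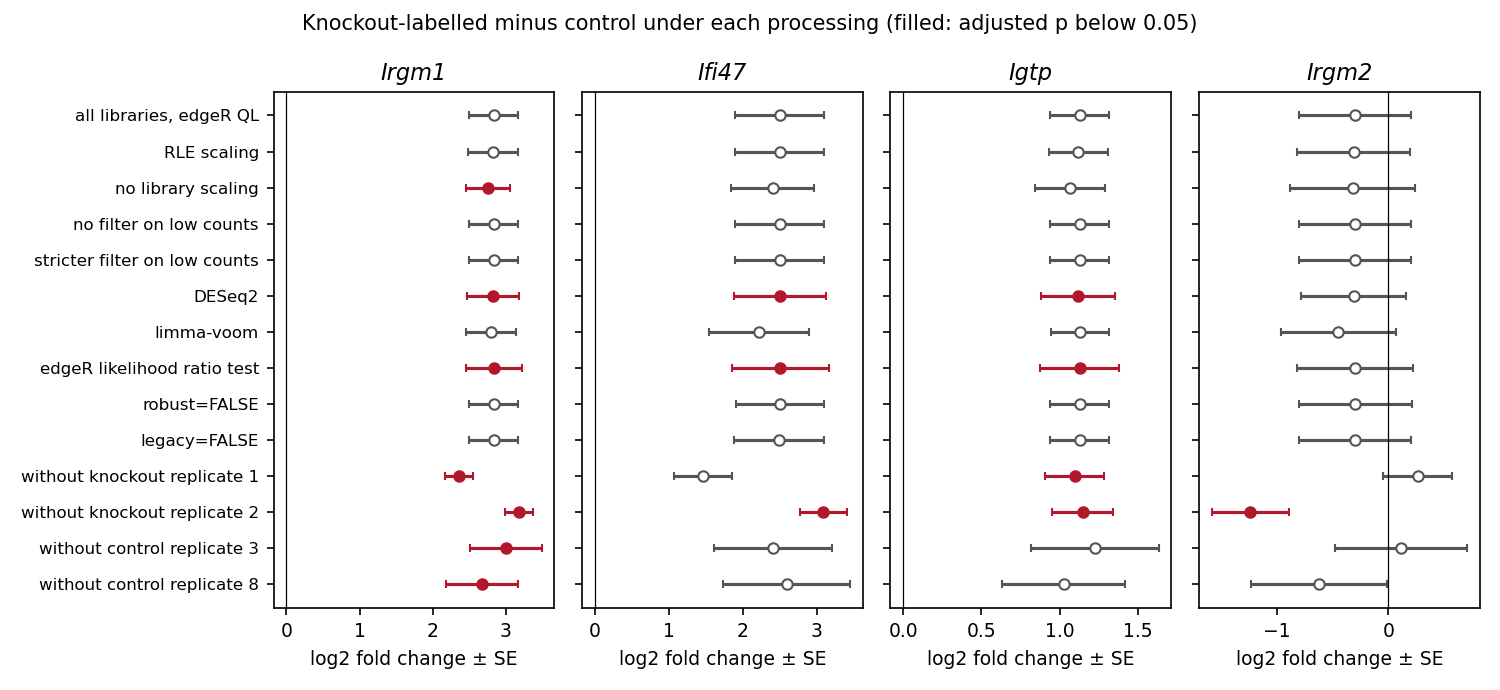
Log2 fold change (knockout-labelled minus control) with its SE for each member under each processing; filled points have an adjusted p below 0.05. Irgm1, Ifi47 and Igtp stay above 0 in every row shown, and Irgm2 ranges from -1.24 to 0.26.

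Levels were compared between genes per kilobase of exon. In the controls Igtp had 54.7 and 48.0 CPM per kilobase and Irgm2 55.3 and 33.3, so these neighbours in the order did not separate. Irgm1 followed with 2.72 and 2.19, and Ifi47 was lowest with 0.469 and 0.538. In the knockout-labelled libraries Igtp had 115 and 110 CPM per kilobase, above Irgm2 with 18.9 and 53.1. Irgm1 had 22.4 and 12.5 there, which overlaps the range of Irgm2, and Ifi47 had 4.36 and 1.40.

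Igtp and Irgm2 were then compared within each library. The level of Irgm2 divided by that of Igtp (CPM over CPM) was 0.283 and 0.833 with the knockout label and 1.74 and 1.19 without it. Exon length (3475 bases in Irgm2, 2022 in Igtp) is not corrected for, so a ratio of 1 is not an equal level per kilobase. The ratio was below 1 in both knockout-labelled libraries and above 1 in both controls. Its mean log2 value was lower by 1.57 in the knockout-labelled libraries, shown by 2 of 2 of them (two-sided exact permutation test, p = 0.333, the smallest that 2 against 2 libraries allow, adjusted p = 0.40 over the 6 pairs of members). The sum of the 2 genes was 297 and 407 CPM with the knockout label and 303 and 213 CPM without it, so the sums overlap. Irgm1 to Ifi47 was the only pair whose ratio overlapped between groups, with 12.9 and 22.5 against 14.5 and 10.2. The 6 ratios are built from the same 4 genes, and ratios of other gene pairs were not computed. Among single genes, 27.4% had both knockout-labelled libraries above both controls and 26.7% below. Nothing is therefore read from the number of pairs.

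Reads shared between related genes bear on these ratios. Of all 50-base windows in the annotated transcripts of Igtp, 9.64% also occur in another gene, all of them in Irgm2. For Irgm2 the share was 6.83%, most of it with Igtp, and for Ifi47 3.43% (with Olfr56), and Irgm1 shared none. No gene annotated on NCBIM37 overlaps Irgm1, Igtp or Irgm2.

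The members lie in 2 clusters on chromosome 11. Irgm1 and Ifi47 are 204903 bases apart, with Tgtp2 and other IRG genes between them, and Igtp and Irgm2 are separated by 7436 bases. Besides Tgtp2, the expression data covered 3 other genes within 100 kilobases of the first cluster, with log2 fold changes from -0.34 to 0.52, and within the same distance of the second there were 5, from -0.56 to 0.37. Of these 8 neighbours edgeR called none (smallest adjusted p = 0.437), beside 0.103% of all genes as higher and 0% as lower. Among them were Gnb2l1, which encodes the ribosomal scaffold protein RACK1, and Mrpl22, which encodes a mitochondrial ribosomal protein.

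**Figure D3:**
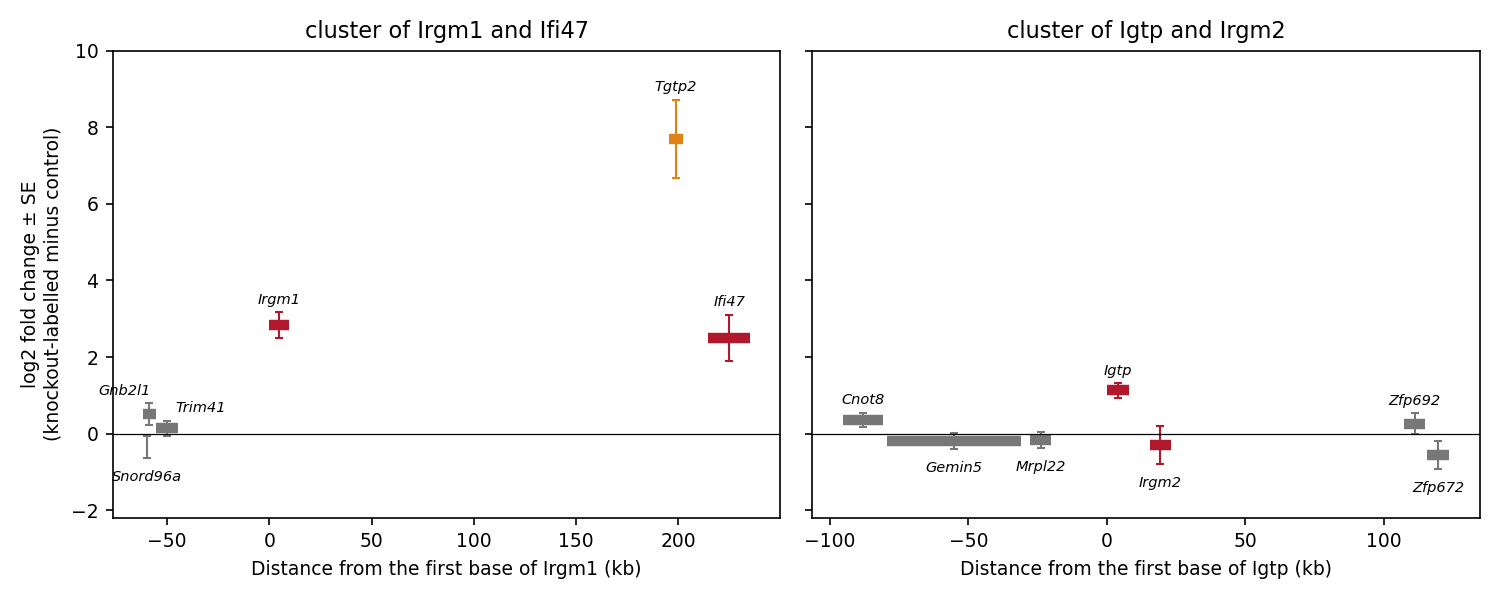
Log2 fold change with its SE (vertical axis) of the genes in the table along the 2 clusters, by distance in kilobases from the first base of Irgm1 or Igtp. Members are red, Tgtp2 orange and other genes grey; the fitted value of Tgtp2 rests on 1 and 2 counts in the controls, and the grey genes lie between -0.56 and 0.52.

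Other GTPases of the IRG and GBP classes and the very large inducible GTPases were taken from a list of relatives, of which 5 of 28 were in the table. Gbp6, a guanylate-binding protein, stood at 63.2 and 30.01 CPM with the knockout label and at 1.70 and 3.21 CPM without it. Its groups did not overlap, with a log2 fold change of 4.22 (SE 0.51, edgeR adjusted p = 0.0764). Tgtp2, an effector IRG protein, was counted 446 and 133 times with the knockout label and 1 and 2 times without it. It exceeded 1 CPM only with the knockout label and is in the table only through that group, so its values are a description. Over the summed counts, scaled by library size, the ratio was 209. The knockout-labelled libraries themselves differed, at 14.5 CPM in replicate 1 and 3.45 in replicate 2. Its promoter stretch is shown because it has the arrangement seen in Igtp and Irgm2, with the GAS and ISRE core again in capitals (chr11:49064213-49064322, GRCm38.p6, minus strand).
Tgtp2: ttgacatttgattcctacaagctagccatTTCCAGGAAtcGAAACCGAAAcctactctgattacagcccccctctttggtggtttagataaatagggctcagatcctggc
The longest run that the promoters of Irgm2 and Tgtp2 share has 17 bases. The same search gave no match of either motif for Gbp6, Gvin1, Gm4070 or Irgq, so Tgtp2 is a picked example. Whether a promoter sequence was found for each of those genes is not given here.

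Gvin1, a very large interferon-inducible GTPase, had 3.59 and 3.65 CPM against 0.290 and 0.824, and its near-copy Gm4070 had 1.37 and 1.66 against 0.218 and 0.592. Irgq, an IRG-like gene that interferon is not known to induce, had 7.40 and 13.4 CPM against 16.1 and 13.9, lower in both knockout-labelled libraries (log2 fold change -0.53, SE 0.34, edgeR adjusted p = 0.475). Of these 5 genes edgeR called 0, beside the 0.103% of all genes given above. Gvin1 and Gm4070, like Tgtp2, exceeded 1 CPM only in the knockout-labelled libraries and are in the table only through them, so nothing is read from a count over these genes. Counts of Tgtp2, Gbp6 and Gvin1 are uncertain, since 90.6%, 80.0% and 98.3% of their 50-base windows occur in another gene, mainly in Tgtp1, Gbp10 and Gm4070.

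The dynamin-family genes compared here and their EHD relatives, which hydrolyse ATP, cut, fuse or shape membranes and are not part of the interferon response. Of 14 such genes 12 were in the table, with log2 fold changes from -1.15 to 0.30 and a median of -0.06, and edgeR called 0, beside 0.103% of all genes as higher. At an unadjusted p below 0.05 it also gave 0, beside 9.82% of all genes as higher and 2.08% as lower. The smallest p values belonged to Mfn2, a fusion protein of mitochondria, with 30.4 and 46.9 CPM against 57.0 and 57.7, and to Ehd2, a membrane-shaping ATPase of caveolae, with 1.04 and 2.67 against 5.11 and 3.21. Both were lower in the knockout-labelled libraries, with an edgeR adjusted p = 0.433 for each.

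**Figure D4:**
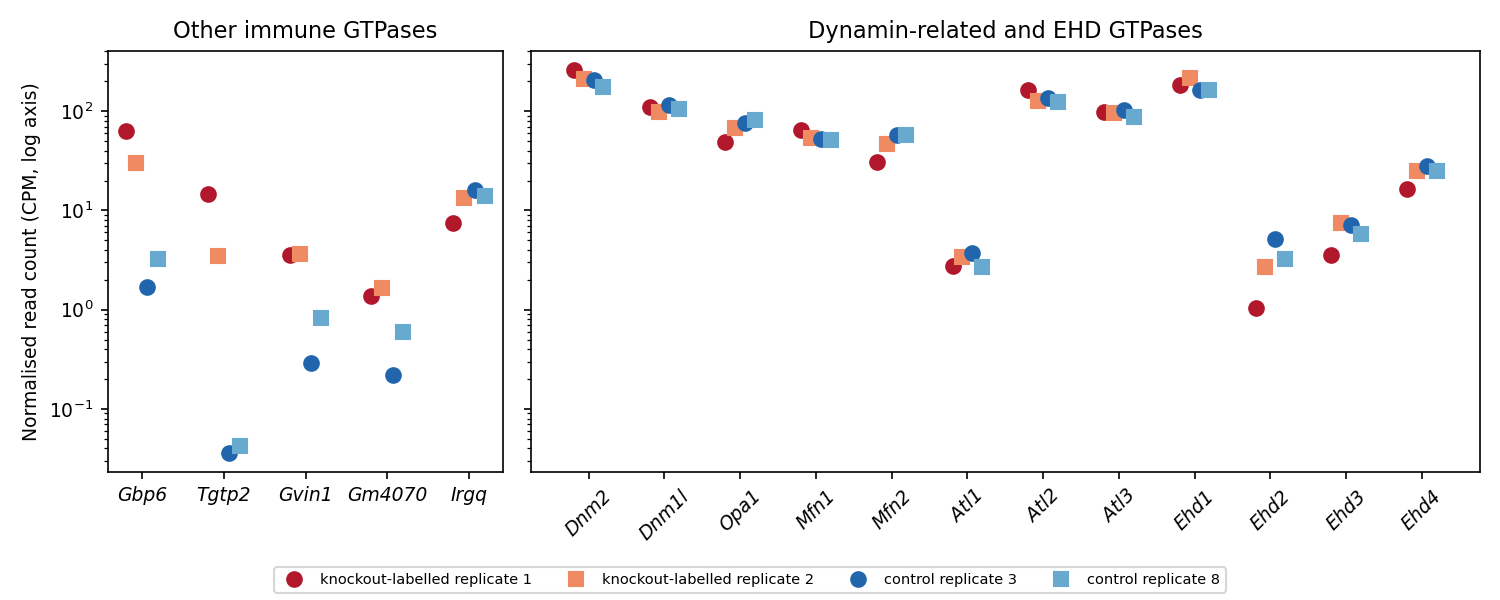
Normalised read count (CPM, log axis) of 5 other immune GTPases (left) and 12 dynamin-related and EHD genes (right); each point is 1 library. Gbp6, Tgtp2, Gvin1 and Gm4070 lie higher in both knockout-labelled libraries, and Irgq lies lower.

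Upstream of the GTPases, 18 of 26 listed genes of interferon signalling were in the table, and edgeR called 0 of them. At an unadjusted p below 0.05 it gave 8 as higher and 1 as lower, beside 9.82% and 2.08% of all genes, and DESeq2 called 6 as higher, beside 3.29%. Their log2 fold changes ran from -0.88 to 4.08, with a median of 0.39, and 9 had both knockout-labelled libraries above both controls while 4 had them below, beside 27.4% and 26.7% of all genes. The smallest p values belonged to Irf7, the regulator of interferon genes, with 116 and 51.3 CPM against 5.22 and 6.49, and to Irf9, the DNA-binding subunit of the ISRE-binding complex, with 92.1 and 106 against 39.9 and 34.0. Next was Usp18, which restrains the interferon receptor, with 51.7 and 16.1 CPM against 2.39 and 1.65. Irf9 was, like Igtp, nearly equal in both knockout-labelled libraries, and Irf7 and Usp18 were higher in replicate 1, like Irgm1 and Ifi47. The interferon-gamma receptor genes were in the table: Ifngr1 had 13.3 and 13.7 CPM against 15.8 and 15.1, and Ifngr2 had 10.05 and 11.4 against 8.74 and 6.13. The edgeR adjusted p was 0.646 for Ifngr1 and 0.445 for Ifngr2.

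Genes with the pattern closest to the median of the members were found by the Euclidean distance between log2 CPM profiles over the 4 libraries, each centred on its control mean. The 5 nearest were Ddit3 (distance 0.157), which encodes the stress factor CHOP, Pde2a (0.201), a cyclic nucleotide phosphodiesterase, S1pr1 (0.209), a sphingosine phosphate receptor, Sgk1 (0.216), a kinase, and Alox12 (0.222), a lipoxygenase. Ddit3 had 140 and 90.2 CPM against 38.3 and 30.8. With 4 libraries such likeness is a description only.

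Markers of other cells moved in part with the members. Endothelial markers (3 of 5 in the table) summed to 20.8 and 17.5 CPM with the knockout label and 8.05 and 6.72 without it, with Pecam1 and Kdr the highest. Pecam1 and Kdr were higher in both knockout-labelled libraries, beside 27.4% of all genes, and the libraries of the remaining gene, Cdh5, overlapped. Megakaryocyte markers (4 of 5), led by Itga2b and Gp9, summed to 121 and 75.3 against 39.4 and 64.3. Itga2b carried that sum with 103 and 59.3 CPM against 19.8 and 51.0, while Gp9 overlapped, with 8.48 and 12.4 against 16.8 and 11.1. Their part in the differences of Irgm1, Igtp and Ifi47 was not tested.

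Neutrophil and monocyte markers (6 of 8), led by S100a9 and Ngp, were high in knockout-labelled replicate 1 only. In replicate 2 they summed to 35.4 CPM, below both controls (39.0 and 43.1), and in that 1 library Irgm1 was at 72.8 CPM, Igtp at 222 and Ifi47 at 3.24, each above both controls. The part of these cells in the members' differences was not tested. Macrophage markers (9 of 12), led by Lyz2 and Csf1r, summed to 50.1 and 23.4 CPM against 57.3 and 33.4, and for 6 of the 9 both knockout-labelled libraries lay below both controls, beside 26.7% of all genes. Lyz2 made up most of the sum in knockout-labelled replicate 1 and went the other way, with 43.1 and 8.32 CPM against 9.68 and 10.9. Hepatoblast markers (4 of 6), led by Afp and Alb, summed to 48.7 and 54.3 CPM against 101 and 38.9. Of the lymphoid markers 1 of 6 was in the table, the pan-leukocyte gene Ptprc, at 9.56 CPM in knockout-labelled replicate 1 and 1.54 to 2.03 in the other libraries.

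**Figure D5:**
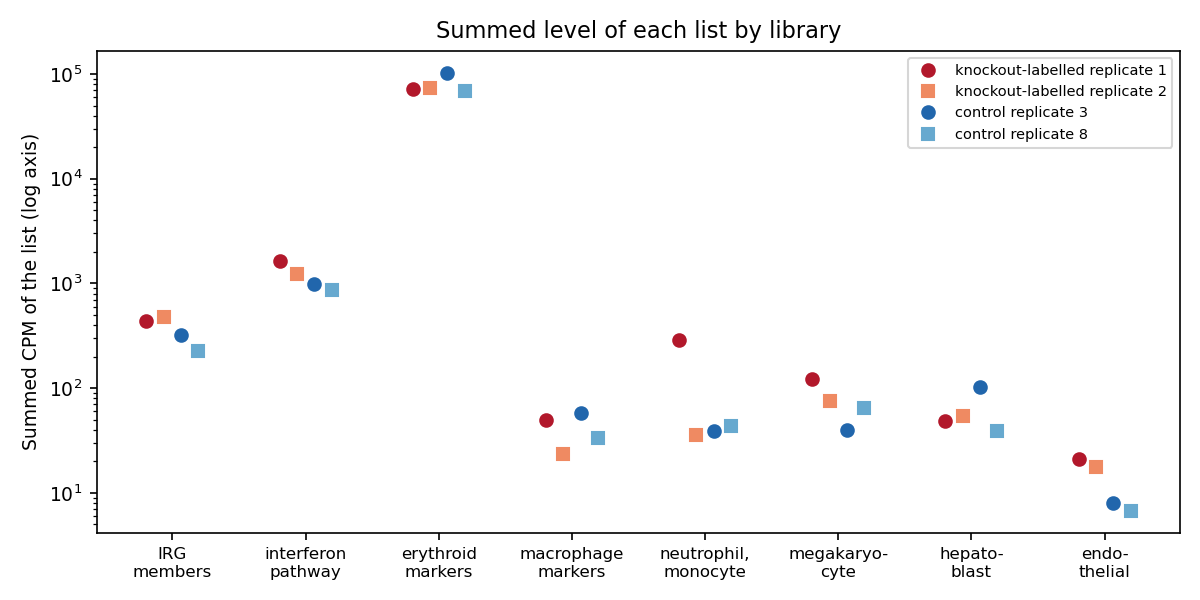
Summed CPM (log axis) of the IRG members, the interferon pathway list and markers of 6 cell types; each point is 1 library. Neutrophil and monocyte markers stand at 286 CPM in knockout-labelled replicate 1 and at 35.4 to 43.1 in the others, and the endothelial sums do not overlap between groups.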

How the data were processed

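Raw counts per gene, whole numbers in a table of 10716 genes, were used as the authors deposited them; both deposited count files hold the same values. The submitters' processing notes list Trimmomatic 0.30, TopHat2 2.0.8, Bowtie2 2.1.0.0, HTSeq, edgeR and limma with the builds mm9 and NCBIM37, without their roles. All genes of the table pass 1 CPM in 2 or more libraries. Strand and the handling of shared reads are not given in the sources used here. P-values and adjusted p-values named as the authors' were copied from their deposited table.

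Counts were fitted in edgeR 4.0.16 (R 4.3.3) with filterByExpr, which removed 0 genes, TMM scaling, glmQLFit (robust=TRUE, legacy=TRUE) and glmQLFTest (two-sided). P-values were adjusted over all genes by the Benjamini-Hochberg method. There were 2 residual degrees of freedom. The SE is the absolute log2 fold change divided by the square root of F. A prior count of 2 was added for log2 profiles. The fits were tested on simulated data. Groups came from the titles. Alternatives were RLE scaling, no scaling, no filter, a stricter filter (1 CPM in every library of a group), DESeq2 1.42.0, limma-voom (limma 3.58.1), the likelihood ratio test, robust=FALSE, legacy=FALSE and leaving out each library. Exon lengths and positions came from GENCODE on NCBIM37, promoters from RefSeq on GRCm38.p6.

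The members and lists were chosen with earlier results of these data known. All measured members and immune GTPases are named; of the dynamin list the 2, of the pathway list the 4 with the smallest p (1 of them is not reported here), of each marker list the 2 highest in mean CPM. Further genes named in the text (Ifngr1, Ifngr2, Cdh5, Gnb2l1 and Mrpl22) were chosen after their values were seen. The partners of IRG and GBP proteins named under other observations were not fixed by any of these rules. Protein features were not analysed here.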

Additional observations from a re-analysis of the deposited data

How the results depend on the processing

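No paired analysis was possible because the groups share no replicate numbers. All genes called higher, 11 in edgeR's quasi-likelihood test, became 85 when libraries were not scaled, 353 in DESeq2 and 331 in the likelihood ratio test, and 25 to 1851 when a library was left out. Those called lower, 0 there (223 at an unadjusted p below 0.05), became 2, 21 and 18, and 1 to 1641 without a library. Members called higher, 0 with all libraries, became 1, 3 and 3 under the same alternatives and 1 to 3 without a library; members called lower were 0 to 1 without a library. Pathway genes called higher, 0 with all libraries, became 3, 6 and 6, and 1 to 8 without a library, with 0 to 2 lower. GTPase relatives called higher, 0 with all libraries, became 2, 3 and 4, and 1 to 3 without a library, with 0 to 5 lower.

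The log2 fold change of Irgm1 passed the threshold at 2.76 when libraries were not scaled, 2.82 in DESeq2 and 2.83 in the likelihood ratio test, and ran from 2.36 to 3.18 without a library. Igtp passed at 1.12 in DESeq2 and 1.13 in the likelihood ratio test (1.03 to 1.23 without a library), and Ifi47 at 2.51 with each (1.46 to 3.09). Irgm2 ran from -1.24 to 0.26 without a library and was reversed at 0.26 without knockout-labelled replicate 1 and at 0.11 without control replicate 3. The median of the IRG members ran from 1.28 to 2.12 without a library. The longer ISRE pattern GAAANNGAAACT matched in 1 member (Irgm1) in place of 3. The cause of these changes was not tested. RLE scaling, no filter, the stricter filter, limma-voom, robust=FALSE and legacy=FALSE changed no call of a member and no direction. Ifi47 had the lowest counts of the members, 30 and 59 in the controls.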

Other observations

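Partners of IRG and GBP proteins were listed separately. A list of 11 genes covers autophagy conjugation, on which the loading of IRG proteins depends, and cargo recruitment. All 11 were in the table, and edgeR called 0, beside 0.103% of all genes as higher. At an unadjusted p below 0.05 it gave 4 as higher, beside 9.82%. For this list the median log2 fold change was 0.37 (range -0.19 to 0.96). Sqstm1, the cargo receptor p62, stood at 412 and 314 CPM with the knockout label and at 192 and 182 CPM without it (log2 fold change 0.96, SE 0.22, edgeR adjusted p = 0.283). Map1lc3b, an LC3 gene, had 344 and 237 CPM against 179 and 157. The conjugation genes Atg5 (18.0 and 18.3 CPM against 20.01 and 21.4) and Atg7 (13.3 and 15.9 against 17.1 and 16.2) were lower in both knockout-labelled libraries, with an edgeR adjusted p = 0.640 and 0.672. Atg12, also a conjugation gene, went the other way, with 105 and 52.0 CPM against 43.5 and 43.2 (edgeR adjusted p = 0.419). The libraries of Atg3 and Atg16l1 overlapped between groups. Of 4 genes listed for cell death downstream of GBP proteins 2 were in the table, and edgeR called 0, beside 0.103% of all genes as higher. Aim2, a DNA sensor that GBP proteins can help activate, had 75.5 and 36.1 CPM against 28.9 and 33.3 (edgeR adjusted p = 0.433). Gsdmd, also on that list, had 2.19 and 1.76 CPM against 1.23 and 1.54 (edgeR adjusted p = 0.521).

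The genes with the profile nearest to single members were sought after the members' values had been seen. Nearest to Irgm1 were Igfbp3, Avil and Parp9, of which Parp9, an interferon-induced ADP-ribosyltransferase family gene, had 99.4 and 61.9 CPM against 15.4 and 12.7. Nearest to Irgm2 were A630066F11Rik, Lancl3 and Slfn14, and Slfn14, a ribosome-associated endoribonuclease gene of erythroid cells and platelets, had 145 and 387 CPM against 388 and 235. Nearest to Igtp were Mid1, Nav1 and Plekha4, all below 2 CPM in every library. Nearest to Ifi47 were Sema6a, Mib2 and Ampd2, and Ampd2, an AMP deaminase gene, had 1803 and 462 CPM against 161 and 198.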
